A study of Mus musculus with 6 samples.

Results

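The genes described are the subunits of the mouse proteasome, its immune-type catalytic subunits and its activators, in tibialis anterior muscle with and without exon 51 of Dmd, the dystrophin gene. Members were chosen by symbol: Psma, Psmb, Psmc, Psmd, Psme or Psmf followed by a number, pseudogenes left out, with at least 30 counts over the 6 libraries. The symbols of 44 genes among the 54232 in the count table matched, and 42 of them had enough counts. All 42 also passed the expression filter of the test, which kept 14335 genes. They were 7 alpha and 7 constitutive beta subunits of the 20S core, 3 immune beta subunits, 6 ATPases and 14 non-ATPase genes of the 19S particle, and 5 genes for activators and the inhibitor-like protein PI31. The symbols below the count minimum were Psma8, the testis-type alpha subunit, with 9 counts in all libraries together, and Psmb11, the thymus-type beta subunit, with 2.

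The RNA came from tibialis anterior, a fast hindlimb muscle, of C57BL6 mice at 1 month of age. Wild-type mice (WT) gave 3 libraries, numbered 1 to 3, and mice lacking Dmd exon 51 (genotype Delta 51, written dEx51 here) gave 3 libraries, numbered 4 to 6. The labels call the libraries of a genotype biological replicates, and they name no treatment, sex, batch, Cre or transgene. Where replicates do not come from separate litters or days, the p-values measure only the spread between these samples.

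The proteasome is the main protease for ubiquitin-tagged proteins in the cytosol and nucleus. Its 20S core is a barrel of alpha and beta rings in which the beta subunits Psmb5, Psmb6 and Psmb7 cut the substrate, and the 19S particle recognises, unfolds and feeds in tagged proteins. Cells exposed to interferon, and many leukocytes at rest, use Psmb8, Psmb9 and Psmb10 in place of those subunits, which changes the peptides made for presentation on class I molecules. In skeletal muscle the ubiquitin-proteasome system is known for its part in the breakdown of myofibrillar proteins during atrophy.

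Promoter sequences of the immune subunits and of their constitutive partners are shown because the exchange of one for the other is the best-known way in which proteasome genes are regulated. Each line gives the 250 bases before the RefSeq gene start on GRCm38.p6, 5′ to 3′ on the gene's own strand. Capitals mark matches to any of 4 motifs searched on both strands.
Psmb8 (chr17:34197945-34198194, plus strand): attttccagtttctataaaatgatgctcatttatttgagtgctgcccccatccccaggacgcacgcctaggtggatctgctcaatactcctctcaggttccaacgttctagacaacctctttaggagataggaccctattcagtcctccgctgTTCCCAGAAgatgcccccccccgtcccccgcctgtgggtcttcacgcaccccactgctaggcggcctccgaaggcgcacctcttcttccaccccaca
Psmb9 (chr17:34187331-34187580, minus strand): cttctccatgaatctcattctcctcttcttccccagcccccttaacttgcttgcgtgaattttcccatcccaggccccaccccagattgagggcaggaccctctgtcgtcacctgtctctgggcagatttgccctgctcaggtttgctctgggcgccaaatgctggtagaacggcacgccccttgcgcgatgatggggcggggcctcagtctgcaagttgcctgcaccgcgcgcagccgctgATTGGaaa
Psmb10 (chr8:105938393-105938642, minus strand): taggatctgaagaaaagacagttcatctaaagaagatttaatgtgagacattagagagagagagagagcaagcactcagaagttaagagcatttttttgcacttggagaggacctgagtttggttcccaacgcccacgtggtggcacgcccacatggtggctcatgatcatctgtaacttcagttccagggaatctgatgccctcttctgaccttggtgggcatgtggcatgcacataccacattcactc
Psmb5 (chr14:54617996-54618245, minus strand): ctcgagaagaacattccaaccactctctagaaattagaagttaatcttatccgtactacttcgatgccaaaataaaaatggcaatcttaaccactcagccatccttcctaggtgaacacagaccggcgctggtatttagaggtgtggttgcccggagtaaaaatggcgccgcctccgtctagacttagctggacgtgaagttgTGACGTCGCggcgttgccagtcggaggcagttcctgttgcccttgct
Psmb6 (chr11:70525107-70525356, plus strand): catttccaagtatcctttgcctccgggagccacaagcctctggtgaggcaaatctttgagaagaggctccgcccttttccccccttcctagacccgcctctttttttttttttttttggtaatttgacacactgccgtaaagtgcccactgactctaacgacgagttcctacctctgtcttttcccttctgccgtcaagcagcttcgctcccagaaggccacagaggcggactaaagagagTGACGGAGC
The capitals in Psmb5 and Psmb6 are matches to TGACNNNGC, the core of the antioxidant response element, which Nrf-type factors bind. They lie 47 and 9 bases before the start. The capitals in Psmb8 match TTCNNNGAA, the gamma-activated site bound by STAT factors, 97 bases before the start, and those in Psmb9 are a CCAAT box on the other strand. None of the 4 motifs was found in the Psmb10 window, and Psmb7 had no entry in the table. The Psmb8 and Psmb9 windows lie inside the spans that GENCODE gives these genes, and those of Psmb5 and Psmb10 lie partly inside, so these annotations place the starts differently.

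RefSeq promoters were matched for 36 of the 42 members. Among these 36, the antioxidant core stood in 5 (Psmb5, Psmb6, Psmc6, Psmd9 and Psmd12), against 10.2% of all 32851 promoters in the table. The interferon-stimulated element TTTCNNTTTC stood in 3 (Psmb3, Psmd4 and Psmd9), against 2.98% of all promoters, and in no immune subunit. The gamma-activated site stood in Psmb8 alone, against 7.02% of all promoters. CCAAT, or ATTGG on the other strand, stood in 13 members, against 33.8% of all promoters. For each motif a member was counted if any of its windows matched, whereas the percentages are per promoter, so the units differ. A match is a description of letters in this window and shows no binding.

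Library totals were 15681945 to 21020353 counts. Dmd itself was at 235.5 to 266.0 CPM (counts per 1000000 of a library size scaled by TMM, edgeR's trimmed-mean method) in WT and at 46.4 to 51.2 CPM in dEx51, with a log2 fold change of -2.37 (edgeR's quasi-likelihood test, Benjamini-Hochberg adjusted p = 2.765e-05). Muscle fibre markers summed to at least 76550 CPM in every library, so the labelled tissue's defining genes were present. Mitochondrially encoded transcripts took 19.4% to 21.1% of counts in WT and 13.4% to 14.8% in dEx51, and TMM factors ranged from 0.869 to 0.898 for WT and from 1.04 to 1.19 for dEx51. Dividing by library totals alone, in place of TMM, shifted the all-gene median by 0.35 (log2) toward dEx51, and fold changes below are relative to the TMM scaling unless said otherwise.

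Few proteasome genes passed the test under TMM scaling. Psmd10, a chaperone of 19S assembly, was the 1 member that rose in dEx51, which is 2.38% of the 42 against 16.1% of all genes tested. Psme4, the activator PA200, and Psmd3, a 19S lid subunit whose direction turned with library totals alone, fell, which is 4.76% of the members against 11.9% of all genes. The other 39 members did not pass an adjusted p of 0.05, and 10 of the 42 had an unadjusted p under 0.05 (6 higher, 4 lower). For unadjusted counts, here and below, the share over all genes is not reported. DESeq2 and limma-voom called the same 3 members, so a subgroup with 0 calls below had 0 by these tools as well. The median log2 fold change of the members was 0.05, beside -0.01 for all genes.

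Most members lay in a narrow band: 37 of 42, or 88.1%, had a log2 fold change within 0.3 of 0, against 50.2% of all genes tested. That comparison was not matched for expression level or SE. The extremes were Psme4 at -0.59 and Psmb8 at 0.73, and the standard errors (SE) ran from 0.0745 to 0.377. In 13 members (31.0%, against 23.8% of all genes) every dEx51 library lay above every WT library, and in 9 (21.4%, against 21.7%) every dEx51 library lay below. The groups overlapped in the remaining 20.

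The split between higher and lower depended on the scaling. With library totals alone, 32 members (76.2%, against 37.6% of all genes) passed as higher and 0 (against 2.33% of all genes; also 0 at an unadjusted p under 0.05) as lower, with a member median of 0.40 beside 0.34 for all genes. With totals that leave out mitochondrially encoded transcripts, a choice made after seeing the data, 21 of 42 (against 26.0% of all genes) passed as higher and 0 (against 3.71% of all genes; 1 at an unadjusted p under 0.05) as lower. The distance of the member median from the all-gene median was 0.06 under TMM and under both of these scalings. In the authors' deposited table, 1 member, Psmd10, was higher (19.1% of its 13958 genes were). There 5 were lower (18.8% of its genes were), namely Psme4, Psmd3, Psmb2, Psmd2 and Psme1. That table holds a likelihood-ratio score, so its test and gene set differ from those used here.

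**Figure D1:**
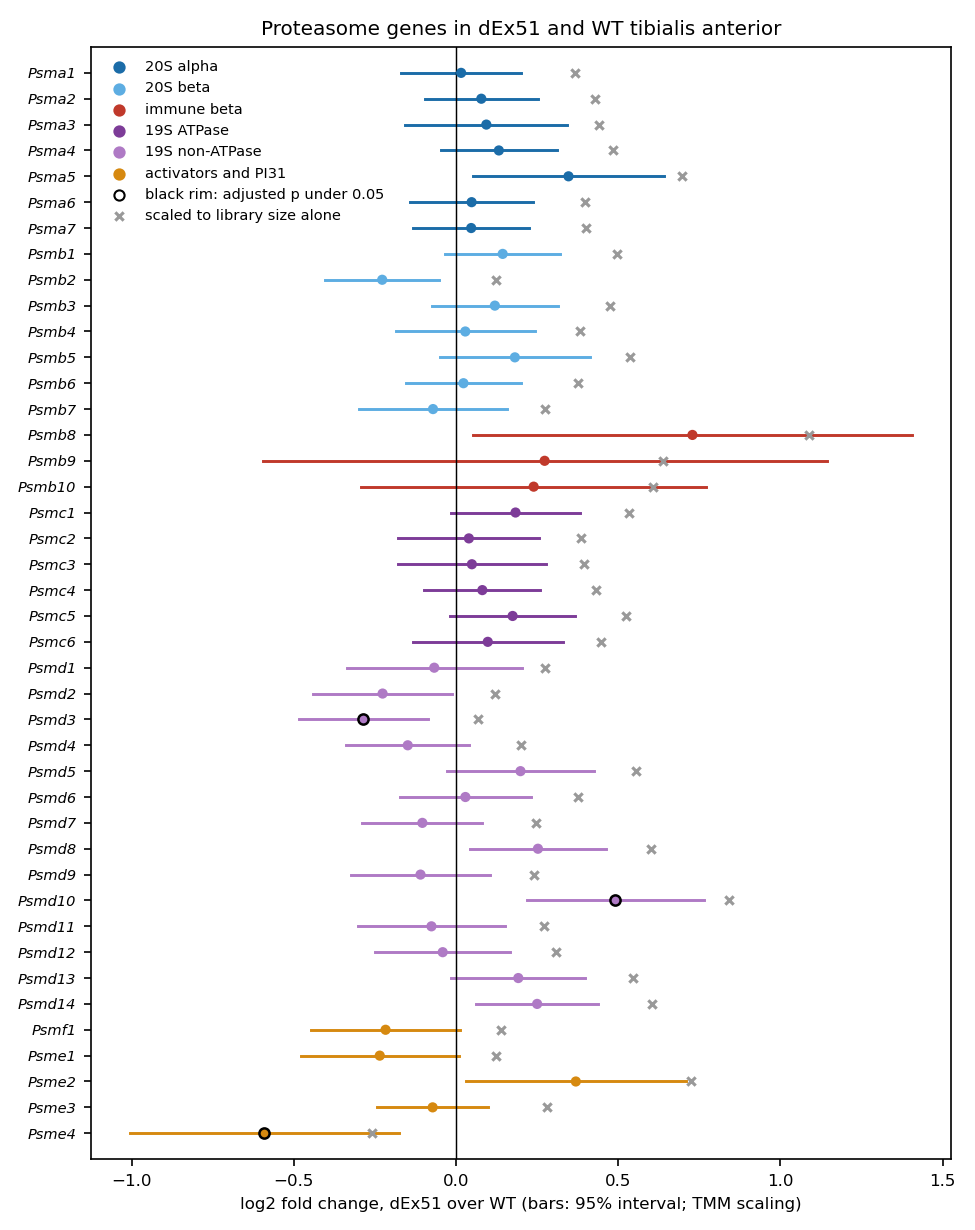
Log2 fold change (dEx51 over WT) of the 42 tested proteasome genes, coloured by subgroup, with 95% intervals under TMM scaling; grey crosses give the value with library totals alone. The points of 37 genes lie within 0.3 of 0, the 3 with a black rim passed the test (Psmd10 higher, Psmd3 and Psme4 lower), and the crosses lie to the right of the points, past 0 for all members but Psme4.

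The 7 alpha subunits form the outer rings of the core and gate its pore. All 7 had positive log2 fold changes, 0 of 7 passed edgeR's test (1 at an unadjusted p under 0.05), and their median was 0.08. Psma5 had the highest value in this ring. It was at 8.91, 9.86 and 10.9 CPM in WT, against 11.3, 13.4 and 12.98 in dEx51. Every dEx51 library was above every WT library, and the log2 fold change was 0.35 ± 0.13 (SE, edgeR's quasi-likelihood test, adjusted p = 0.0763). Psma1 had the lowest value, with 66.8, 69.4 and 74.5 CPM in WT against 72.2, 70.0 and 70.7 CPM in dEx51. Its groups overlapped, with a log2 fold change of 0.02 (95% interval -0.17 to 0.20). Psma6, the most abundant of the 42 members per kilobase of exon, was at 77.1 CPM per kilobase in WT and differed by 0.05 on the log2 scale.

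The constitutive beta subunits form the inner rings, and Psmb5, Psmb6 and Psmb7 carry the chymotrypsin-like, caspase-like and trypsin-like sites. Of the 7, 0 passed edgeR's test (1 at an unadjusted p under 0.05), and the median log2 fold change was 0.03. Psmb6 was at 73.5, 73.9 and 70.3 CPM in WT, against 74.4, 75.2 and 71.5 in dEx51. The values of the groups interleaved, and the log2 fold change was 0.02 (95% interval -0.15 to 0.20). Psmb5 was at 23.5, 26.6 and 21.7 CPM in WT, against 27.8, 27.3 and 26.5 in dEx51. WT 2 lay just above dEx51 6, so the groups overlapped, with a log2 fold change of 0.18 (95% interval -0.05 to 0.41), the highest in this ring. Psmb7 was at 73.6, 80.3 and 74.7 CPM in WT, against 66.1, 70.9 and 80.8 in dEx51. Here dEx51 6 was the highest of all libraries, and the log2 fold change was -0.07 (95% interval -0.30 to 0.16), which turned to 0.28 with library totals alone.

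Psmb2, a non-catalytic beta subunit, had the lowest value of the ring. It was at 51.1, 52.6 and 49.4 CPM in WT, against 43.8, 43.2 and 43.7 in dEx51. The groups did not overlap and the spread in dEx51 was small, with a log2 fold change of -0.23 ± 0.08 (SE, edgeR's quasi-likelihood test, adjusted p = 0.0569) that turned to 0.12 with library totals alone. The authors' deposited table, which holds a likelihood-ratio score, had Psmb2 lower at a log2 fold change of -0.26 (adjusted p = 0.0105). Its test and gene set differ from those used here.

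Summed over the 14 constitutive subunits, the core was at 785, 816 and 799 CPM in WT, against 813, 833 and 832 in dEx51. The groups overlapped under TMM, as dEx51 4 lay below WT 2. Scaled by library totals alone, the sums were 705, 709 and 712 in WT and 946, 989 and 863 in dEx51, without overlap. As these are bulk samples, less RNA per cell and fewer cells of a type cannot be told apart for any of these genes.

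The immune beta subunits are inserted during assembly in place of the constitutive sites, and Psmb8 and Psmb9 lie beside Tap1 and Tap2 in the class II region of the major histocompatibility complex. All 3 had positive log2 fold changes and 0 of 3 passed edgeR's test (1, Psmb8, at an unadjusted p under 0.05). They were also the least abundant catalytic subunits. Per kilobase of exon in WT, Psmb9 was at 0.606 CPM, Psmb8 at 1.25 CPM and Psmb10 at 3.52 CPM. Their constitutive counterparts were at 38.8 CPM per kilobase for Psmb6, 26.6 for Psmb5 and 22.3 for Psmb7. The exon lengths merge the exons of all transcript models of a gene, which lowers a level per kilobase where most exons are not used in muscle.

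Psmb8 (LMP7; chr17:34197721-34201454, plus strand) was at 2.99, 2.36 and 4.94 CPM in WT, against 5.99, 6.61 and 4.21 in dEx51. WT 3 lay above dEx51 6, so the groups overlapped, and the difference was 0.73 ± 0.29 on the log2 scale (SE, 95% interval 0.05 to 1.41, edgeR's quasi-likelihood test, adjusted p = 0.1001). Leaving out 1 library moved it between 0.51 (without WT 2, adjusted p = 0.285 in the same test) and 1.06 (without WT 3, adjusted p = 0.0332), and of these 6 fits it passed only in the one without WT 3. It also passed with library totals alone, at 1.09 and an adjusted p of 0.0309 in the same test. Under TMM without the expression filter it passed too, at 0.749 (adjusted p = 0.0201 in that test). In limma-trend on the authors' log2 RPKM values, with 0.1 or 1 added, it passed at 1.03 and 0.658. These values rest on 538 counts over the 6 libraries.

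Psmb9 (LMP2; chr17:34181987-34187764, minus strand) was at 1.66, 1.70 and 3.295 CPM in WT, against 3.00, 3.37 and 1.51 in dEx51. The lowest library of all was dEx51 6, and WT 3 lay among the higher ones. The log2 fold change was 0.27 (95% interval -0.60 to 1.14, edgeR's quasi-likelihood test, adjusted p = 0.626), from 283 counts in total, and ranged from 0.07 (without dEx51 5) to 0.64 (without WT 3) when 1 library was left out. Its annotated exons share 212 bases with exons of Tap1 on the opposite strand, and with the strand setting not given in the sources used here, reads of Psmb9 and Tap1 may not be fully separated.

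Psmb10 (MECL-1; chr8:105935735-105938444, minus strand) was at 5.70, 6.85 and 5.44 CPM in WT, against 8.09, 8.40 and 4.73 in dEx51. Here dEx51 4 and 5 lay above all WT libraries and dEx51 6 below them. The log2 fold change was 0.24 (95% interval -0.29 to 0.77, edgeR's quasi-likelihood test, adjusted p = 0.474), and ranged from 0.11 (without dEx51 5) to 0.45 (without dEx51 6) when 1 library was left out.

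**Figure D2:**
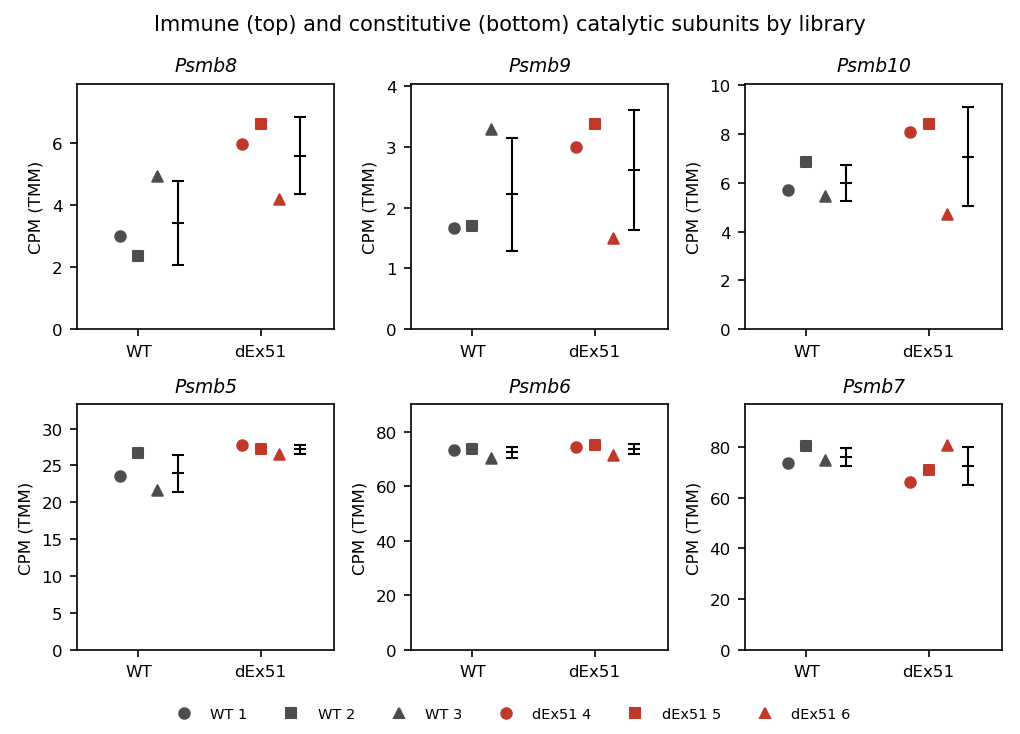
CPM with TMM scaling of the immune subunits Psmb8, Psmb9 and Psmb10 (top) and of Psmb5, Psmb6 and Psmb7 (bottom), 1 point per library, with mean and SD (n = 3) beside each group. In the top panels dEx51 4 and 5 are high and dEx51 6 lies among or below the WT libraries, while the bottom panels show about equal levels with overlapping groups.

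Transcripts of the catalytic pairs were compared within each library, where no scaling between libraries enters, as the immune share of the pair per kilobase. These are shares of RNA and do not show which subunits are in assembled cores. They also rest on the merged exon lengths described above. Psmb8 made up 4.04%, 2.85% and 6.998% of the Psmb8 and Psmb5 pair in WT and 6.64%, 7.39% and 4.98% in dEx51. The groups overlapped through WT 3 and dEx51 6. The log2 ratio differed by 0.56 between the group means, with an exact permutation p of 0.3 (two-sided).

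Psmb9 made up 1.16%, 1.18% and 2.37% of its pair with Psmb6 in WT and 2.03%, 2.26% and 1.08% in dEx51. That log2 ratio differed by 0.21, with an exact permutation p of 1. Psmb10 made up 13.5%, 14.7% and 12.8% of its pair with Psmb7 in WT and 19.8%, 19.3% and 10.6% in dEx51. The log2 ratio differed by 0.27, with an exact permutation p of 0.4. Adjusted over the 3 pairs, the exact p-values were 0.6, 1 and 0.6, and 3 libraries against 3 cannot go below 0.1. In all 3 pairs the lowest dEx51 share was that of dEx51 6.

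Leukocyte markers differed strongly between the same libraries. Beside each count of markers that rose in this paragraph stands the share of all genes tested that rose, 16.1%. The summed level of 5 pan-leukocyte genes, all 5 of which rose, was 18.4, 9.42 and 26.7 CPM in WT and 142, 186 and 111 CPM in dEx51. The immune subunits summed to 10.4, 10.9 and 13.7 CPM in WT and to 17.1, 18.4 and 10.4 CPM in dEx51. WT 3 was the highest WT library and dEx51 6 the lowest dEx51 library in both sums. Of 13 macrophage and monocyte markers 12 rose, with sums of 99.3 to 199.7 CPM in WT and 593.9 to 1314 CPM in dEx51. T cell markers were low, with sums of 0.658 to 1.58 CPM in WT and 2.84 to 3.84 CPM in dEx51 and Cd3g at 0 in WT, but the 2 of 7 that were tested, Cd4 and Cd3e, both rose. Neutrophil markers summed to 0.164 to 1.29 CPM in WT and 2.60 to 8.49 CPM in dEx51. The 1 of 5 tested, Csf3r, rose, while Ly6g and Mpo were at 0 in all 6 libraries. B cell markers summed to 0.501 to 0.712 CPM in WT and 0.104 to 0.919 CPM in dEx51, with 0 of 4 tested. NK cell markers summed to 0.166 to 1.79 CPM in WT and 1.51 to 2.44 CPM in dEx51. Of those 5 only Klrk1 was tested, and it did not pass. Of 5 dendritic cell markers 3 rose, with sums of 3.65 to 6.16 CPM in WT and 19.4 to 44.9 CPM in dEx51. In the dendritic and T cell sums dEx51 6 was the highest library, unlike in the pan-leukocyte sum. Itgax made up most of the dendritic sum in dEx51, at 17.4, 11.2 and 38.5 CPM in dEx51 4, 5 and 6. Of the dEx51 libraries, dEx51 6 was the lowest for Flt3, Xcr1 and Cd209a and the highest for Clec9a. Xcr1 and Clec9a did not pass. Myogenic markers summed to 36.9 to 37.7 CPM in WT and 212 to 276 CPM in dEx51, and 5 of 6 rose. Endothelial markers summed to 422 to 509 CPM in WT and 297 to 376 CPM in dEx51. Of these 5, 3 fell (against 11.9% of all genes), and 0 passed as lower with library totals alone. Fibro-adipogenic sums overlapped, and 2 of 5 rose. The part of leukocytes, or of any other cell type, in the levels of Psmb8, Psmb9 and Psmb10 was not tested.

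**Figure D3:**
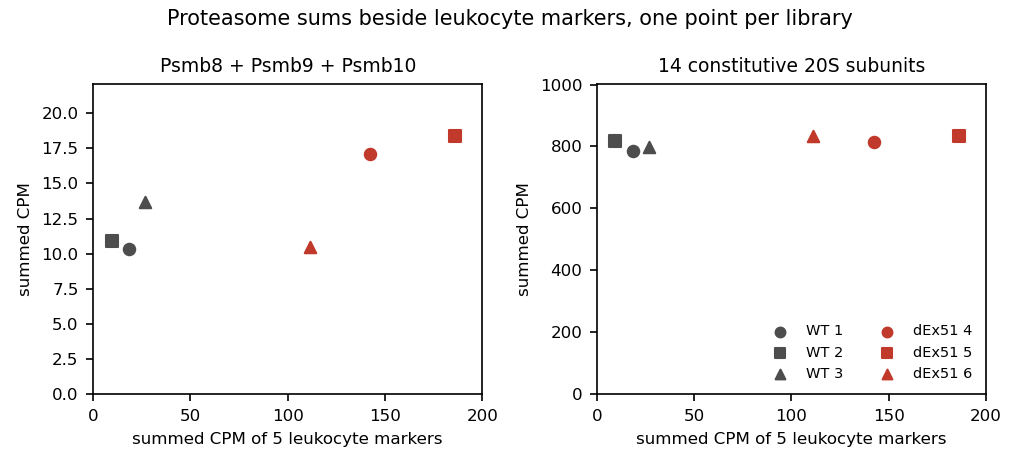
Summed CPM (TMM scaling) of the 3 immune beta subunits (left) and of the 14 constitutive 20S subunits (right) against the summed CPM of 5 leukocyte markers, 1 point per library. The dEx51 libraries lie at 111 to 186 CPM of leukocyte markers and the WT libraries at 9.42 to 26.7 CPM, whereas dEx51 6 has about the same immune subunit sum as WT 1 (10.4 CPM each).

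The ATPases Psmc1 to Psmc6 form the ring of the 19S base that unfolds substrates. All 6 had positive log2 fold changes, from 0.04 to 0.18, and 0 of 6 passed edgeR's test, adjusted or not. Psmc1 had the highest value, with 87.1, 95.8 and 95.7 CPM in WT and 99.7, 106 and 110.3 CPM in dEx51. The groups did not overlap, and the log2 fold change was 0.18 (95% interval -0.02 to 0.38). Psmc2 had the lowest, with 86.7, 94.6 and 96.0 CPM in WT and 89.3, 91.6 and 104 CPM in dEx51. Its groups overlapped, and the log2 fold change was 0.04 (95% interval -0.18 to 0.26).

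The 14 non-ATPase genes hold the lid, the ubiquitin receptors and the base chaperones. Here 1 rose (7.14%, against 16.1% of all genes), 1 fell (7.14%, against 11.9%) and 12 did not pass. The median log2 fold change was -0.05. Psmd10 (gankyrin; chrX:140948429-140956728, minus strand) is a chaperone that binds the ATPase Psmc4 during assembly and leaves the finished particle. It was at 7.97, 6.85 and 7.38 CPM in WT, against 10.9, 10.2 and 10.2 in dEx51. Every dEx51 library was above every WT library, at a mean of 141% of WT. The log2 fold change was 0.49 ± 0.12 (SE, edgeR's quasi-likelihood test, adjusted p = 0.0184), from 1054 counts in total. The call was lost, at 0.43 to 0.48, when WT 2, WT 3 or dEx51 4 was left out. Psmd5 and Psmd9, the other base chaperones, had log2 fold changes of 0.20 and -0.11 (0.24 for Psmd9 with library totals alone) and did not pass.

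Psmd3 (Rpn3; chr11:98682554-98695979, plus strand) is a scaffold subunit of the lid. It was at 91.5, 87.6 and 79.1 CPM in WT, against 70.9, 71.7 and 69.3 in dEx51. The groups did not overlap, the dEx51 mean was 82.1% of WT, and the log2 fold change was -0.29 ± 0.09 (SE, edgeR's quasi-likelihood test, adjusted p = 0.041), which turned to 0.07 with library totals alone. The call was lost without WT 1, WT 2, dEx51 4, dEx51 5 or dEx51 6, at -0.25 to -0.29.

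Among the members that did not pass, Psmd14, the deubiquitinase of the lid, had a log2 fold change of 0.25 (95% interval 0.06 to 0.44). Psmd8, a lid subunit, was at 0.25 (0.04 to 0.46). Psmd2, the scaffold of the base that binds ubiquitin shuttles, was at -0.23 (-0.44 to -0.01), which turned to 0.12 with library totals alone. In edgeR's quasi-likelihood test their adjusted p-values were 0.0532, 0.0723 and 0.105, and the groups of each did not overlap. Psmd4, a ubiquitin receptor, was at -0.15 (-0.34 to 0.04), also without overlap, and turned to 0.20 with library totals alone. The 19S genes summed to 1933, 2057 and 2010 CPM in WT and to 1930, 1973 and 2128 CPM in dEx51, with interleaved groups under TMM. Scaled by library totals alone, they summed to 1734, 1786 and 1790 in WT and 2244, 2341 and 2207 in dEx51, without overlap.

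The activators open the 20S gate without the 19S particle. Psme4 (PA200; chr11:30771726-30880361, plus strand), a large nuclear activator, was the most abundant member by CPM and the second by CPM per kilobase, at 72.2 in WT. It was at 585.4, 585.2 and 643.9 CPM in WT, against 332.9, 344.3 and 527.6 in dEx51. Every dEx51 library was below every WT library, but dEx51 6 lay closer to WT than to dEx51 4 and 5. The mean in dEx51 was 66.4% of WT, a log2 difference of -0.59 ± 0.18 (SE, 95% interval -1.01 to -0.18, edgeR's quasi-likelihood test, adjusted p = 0.0425).

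The size of the Psme4 fall depended on scaling and on single libraries. It was -0.84 without dEx51 6 and stayed called, and -0.47 to -0.62 and not called without any one of the other 5 libraries. With library totals alone it was -0.26 and not called. Muscle fibre markers summed to 118700 to 121800 CPM in WT, 78030 and 76550 CPM in dEx51 4 and 5, and 104600 CPM in dEx51 6. Single markers differed. Of the dEx51 libraries, dEx51 6 was the highest for Myh4, Acta1, Ckm, Tnnt3, Pvalb and Actn3. It was the lowest for Myh1, Myh2 and Mb. Myh4 was at 20280, 20090 and 38590 CPM in dEx51 4, 5 and 6, and Myh1 at 12200, 11040 and 8929 CPM. Of these 9 markers 1 fell (against 11.9% of all genes) and 8 did not pass. Their part in the level of Psme4 was not tested.

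Psme1 and Psme2 encode the alpha and beta chains of PA28, an interferon-inducible activator made of both. Psme1 was at 29.8, 27.3 and 29.8 CPM in WT, against 26.4, 25.8 and 21.6 in dEx51. Psme2 was at 6.42, 5.64 and 6.88 CPM in WT, against 8.26, 8.97 and 7.17 in dEx51. In neither gene did the groups overlap, and they differed in opposite directions under TMM. The log2 fold change of Psme1 was -0.24 (95% interval -0.48 to 0.01, edgeR's quasi-likelihood test, adjusted p = 0.132), which turned to 0.12 with library totals alone. That of Psme2 was 0.37 (95% interval 0.03 to 0.71, adjusted p = 0.0962 in the same test), and it passed with library totals alone, at 0.73.

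The ratio of the PA28 chains needs no scaling between libraries. The log2 ratio of Psme2 to Psme1 counts was -2.21, -2.27 and -2.12 in WT and -1.68, -1.52 and -1.59 in dEx51. The groups lay apart, at -2.20 ± 0.08 and -1.60 ± 0.08 (SD, n = 3 each), and the difference of 0.60 was several times the spread within either group. The ratio was picked with its values in view and has no test. A Psme2-like copy, Psme2b, lies elsewhere in the genome, so reads of Psme2 may be shared with it.

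Psme3, the nuclear activator PA28 gamma, was at 68.2, 65.4 and 66.8 CPM in WT, against 64.3, 63.2 and 63.1 in dEx51. The groups did not overlap but lay close, with a log2 fold change of -0.07 (95% interval -0.24 to 0.10) that turned to 0.28 with library totals alone. Psmf1, which encodes PI31, was at 17.3, 18.5 and 17.0 CPM in WT, against 15.5, 15.9 and 13.9 in dEx51. Its groups did not overlap either, and its log2 fold change was -0.22 (95% interval -0.45 to 0.01), which turned to 0.14 with library totals alone.

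**Figure D4:**
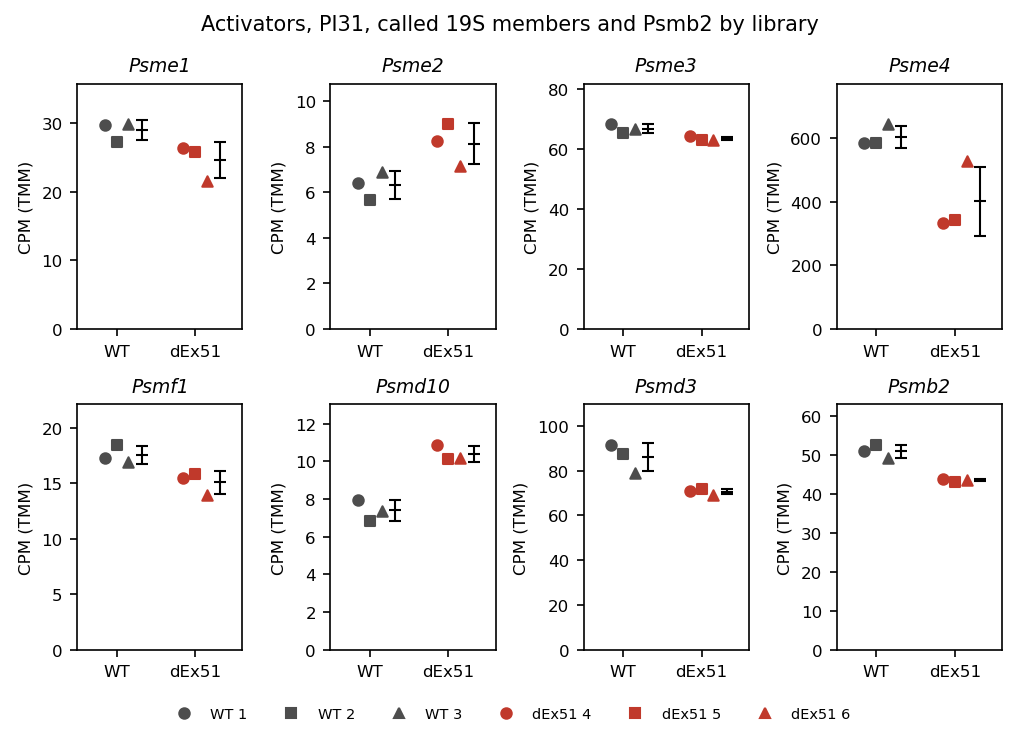
CPM with TMM scaling of Psme1 to Psme4, Psmf1, Psmd10, Psmd3 and Psmb2, 1 point per library, with mean and SD (n = 3) beside each group. Of the genes that passed the test, Psmd10 is above WT in each dEx51 library, Psmd3 and Psme4 are below, and dEx51 6 is the highest dEx51 library for Psme4; with library totals alone Psmd3, Psme1, Psme3, Psmf1 and Psmb2 had positive log2 fold changes.

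To compare members with the core itself, each was divided by the geometric mean of the 14 constitutive 20S subunits of its library, a choice made after seeing the data and given without a test. Of the 28 members outside the core, 5 (17.9%, against 19.7% of all genes) had higher ratios in every dEx51 library than in any WT library. Lower ratios in every dEx51 library were found for 9 (32.1%, against 27.8% of all genes). The groups overlapped for 14. These shares are near those of all genes.

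Psme4 had the highest ratio of counts to the core. Its log2 ratio was 3.596 ± 0.09 in WT and 2.91 ± 0.36 in dEx51 (SD, n = 3). Counts were not divided by exon length here, so the level of a ratio also reflects length, whereas differences between groups do not. Psme4 also had the most negative difference between the groups, -0.69. Psmd3 differed by -0.35, Psme1 by -0.31, Psmd2 by -0.30 and Psmf1 by -0.29, all without overlap. On the other side Psmd10 differed by 0.42 without overlap. The difference of Psmb8 was 0.68, with overlapping groups.

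**Figure D5:**
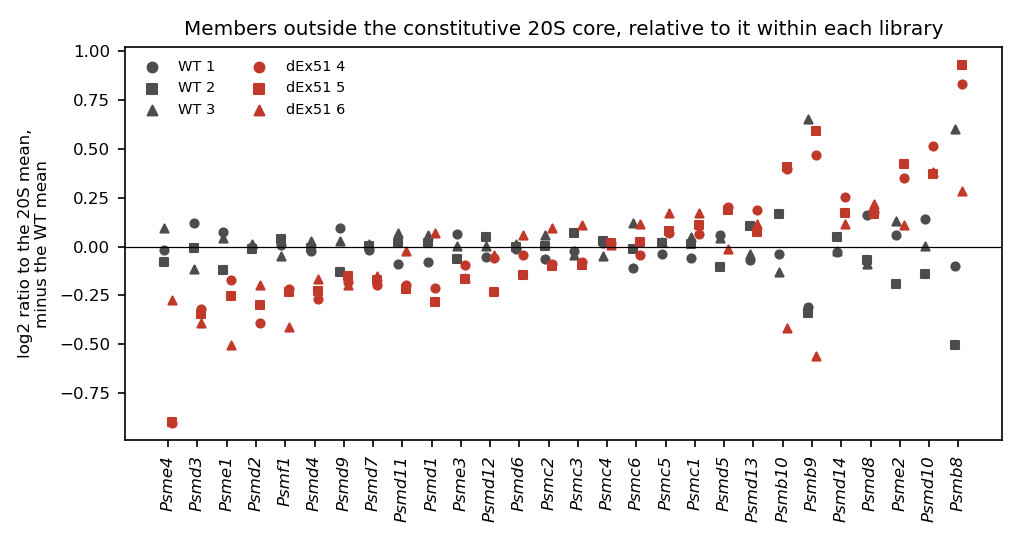
Log2 ratio of each of the 28 members outside the constitutive 20S core to the geometric mean of the 14 core subunits, minus the WT mean, 1 point per library, ordered by the difference. Psme4 has the most negative difference, with dEx51 6 apart from dEx51 4 and 5; Psmd10 is high in all 3 dEx51 libraries, and the WT and dEx51 points of Psmb8, Psmb9 and Psmb10 overlap.

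Genes that build and control the proteasome were read from a list of 21, of which 19 were tested. One gene, Pomp, rose (1 of 19, against 16.1% of all genes), 2 fell (against 11.9%) and 16 did not pass, with a median log2 fold change of -0.01. With library totals alone 11 of the 19 passed as higher (against 37.6% of all genes) and 0 as lower (against 2.33%). Pomp is the maturation factor of the 20S core. It was at 47.7, 49.6 and 48.9 CPM in WT, against 58.0, 62.3 and 60.0 in dEx51. Every dEx51 library was higher, with a log2 fold change of 0.30 (edgeR's quasi-likelihood test, adjusted p = 0.0223). The call was lost without WT 1, WT 2, WT 3 or dEx51 5, at 0.28 to 0.31.

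Nfe2l1 encodes Nrf1, the factor that raises transcription of proteasome genes when the protease is inhibited. It was at 898.9, 914.3 and 775 CPM in WT, against 652.7, 614.7 and 604.8 in dEx51. Every dEx51 library was lower, with a log2 fold change of -0.47 (edgeR's quasi-likelihood test, adjusted p = 0.0159). With library totals alone it was -0.11 and not called, and the call was also lost without WT 2 or dEx51 5, at -0.43 and -0.45. Its paralogue Nfe2l2 was at 40.3, 58.9 and 55.2 CPM in WT, against 65.1, 63.7 and 57.1 in dEx51. Those groups overlapped, at a log2 fold change of 0.27 (adjusted p = 0.196 in edgeR's quasi-likelihood test).

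Ube3c, a ubiquitin ligase that acts on the proteasome, was at 104, 97.4 and 95.5 CPM in WT, against 77.3, 69.5 and 80.9 in dEx51. Its log2 fold change was -0.38 (edgeR's quasi-likelihood test, adjusted p = 0.0171), and with library totals alone it was -0.04 and not called. The call was lost without WT 2 or dEx51 5, at -0.40 and -0.31. Sem1, a small lid subunit outside the symbol rule, had a log2 fold change of 0.29 and did not pass (adjusted p = 0.0841 in edgeR's quasi-likelihood test).

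Of the genes that supply ubiquitin or carry substrates, 17 were tested, 0 rose in edgeR's test (1 at an unadjusted p under 0.05, and 0 by DESeq2 or limma-voom), 3 fell (against 11.9% of all genes) and 14 did not pass, with a median log2 fold change of -0.09. Under library totals alone, 8 of the 17 passed as higher (against 37.6% of all genes), 0 as lower (against 2.33%), and the median was 0.26, beside 0.34 for all genes. Ubqln4, a shuttle factor, was at 138, 135 and 122 CPM in WT, against 88.2, 82.3 and 94.3 in dEx51, with a log2 fold change of -0.58 (adjusted p = 0.00446 in edgeR's quasi-likelihood test).

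Bag6, which holds misfolded membrane proteins for ubiquitination, was at 158, 155 and 130.0 CPM in WT, against 103, 103 and 117 in dEx51. Its log2 fold change was -0.45 (edgeR's quasi-likelihood test, adjusted p = 0.0169). That call was lost without WT 2, dEx51 4 or dEx51 5, at -0.41 to -0.42. The groups did not overlap in Ubqln4 or Bag6. With library totals alone Ubqln4 was at -0.23 and Bag6 at -0.11, and neither passed. With totals without mitochondrial transcripts Ubqln4 passed at -0.34 (adjusted p = 0.0197 in edgeR's quasi-likelihood test), and Bag6 at -0.22 did not. The Ubqln4 call stayed with each library left out, at -0.52 to -0.64.

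Genes of class I antigen processing and interferon signalling, with which the immune subunits share regulation, had a median log2 fold change of 0.42. Of 21 tested, 5 rose (against 16.1% of all genes), 1 fell (against 11.9%) and 15 did not pass. Under library totals alone, 11 passed as higher (against 37.6% of all genes) and 0 as lower (against 2.33%). Those that rose were Pdia3 (1.16) and Calr (0.62), chaperones of the peptide-loading complex that also serve general protein folding, the class I heavy chain H2-D1 (0.80), and the transcription factors Irf8 (1.31) and Irf9 (0.54). Irf8 is mainly a factor of myeloid and B cells. The genes of this list summed to 1024 to 1273 CPM in WT and 1286 to 1443 CPM in dEx51. The part of leukocytes in these levels was not tested. Ifngr2, a chain of the interferon gamma receptor, fell at -0.31 under TMM and was at 0.04 with library totals alone.

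Pdia3 was at 57.3, 49.7 and 60.8 CPM in WT, against 146, 135 and 93.3 in dEx51, and Irf8 was at 5.98, 4.33 and 7.02 CPM, against 13.4, 19.4 and 9.81. Of the dEx51 libraries, dEx51 6 was the lowest for both genes. H2-D1 was at 65.2, 66.8 and 101 CPM in WT, against 135, 151 and 120 in dEx51. Every dEx51 library was higher, with an adjusted p of 0.0139 in edgeR's quasi-likelihood test, and the call was lost without WT 2 or dEx51 5, at 0.69 and 0.73. Tap1, which carries proteasome products into the endoplasmic reticulum, was at 4.10, 4.16 and 8.95 CPM in WT, against 7.96, 9.84 and 4.88 in dEx51. As for Psmb8 and Psmb9, WT 3 was the highest WT library and dEx51 6 the lowest dEx51 library, and the log2 fold change was 0.42 (adjusted p = 0.411 in edgeR's quasi-likelihood test).

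Tap2, the partner of Tap1, and Irf1, an interferon-response factor, had log2 fold changes of 0.07 and 0.16 and did not pass. Irf1 was at 9.41, 8.71 and 14.97 CPM in WT, against 12.9, 14.6 and 9.30 in dEx51, with WT 3 as the highest library of all.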

How the data were processed

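The labels describe stranded mRNA libraries. FastQC 0.11.4, featureCounts 1.6.0 and edgeR 3.30.1 were used with build GRCm38 (mm10), per the submitters' processing notes. Aligner, strand setting and annotation release: not given in the sources used here. Raw counts were deposited with an exon length per gene, and RPKM values for 13958 genes, all made by the authors. The authors' deposited comparison holds log2 fold changes and log2 CPM, a likelihood-ratio score, p-values with adjusted p-values, and −log10 p-values, per the file headers.

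Counts were tested in edgeR 4.0.16 (R 4.3.3) by its quasi-likelihood F-test after TMM scaling and the default expression filter by group, two-sided, with Benjamini-Hochberg adjustment over 14335 genes and a threshold of 0.05. The SE is the log2 fold change over the square root of F. The script was tested on simulated data. CPM are counts per 1000000 of the TMM-scaled library. Ratios within a pair used 0.5 added to each count and an exact permutation test. Levels per kilobase used the deposited exon length, which equals that of GENCODE M21 for 40 members (not Psmb8 or Psmb9). Coordinates are from GENCODE M21 on GRCm38, and promoters from RefSeq on GRCm38.p6. Exons of Psmb7, Psmd13 and Psmc3 also overlap genes on the other strand (Nek6, Sirt3 and Slc39a13), so their values are less certain.

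Genes named with values in every library were the immune subunits and their partners, activators, called members, the highest and lowest member of each subgroup, up to 4 genes with the smallest adjusted p of each list, and preset regulators, some of which are not reported here. Other named genes were chosen after their values were seen. Members and lists were chosen with earlier results of these data known. Alternatives were DESeq2 size factors, library totals, no filter, a 30-count filter, DESeq2 1.42.0, limma-voom and limma-trend on log2 RPKM (limma 3.58.1, 0.1 or 1 added), a replicate block, each library left out, and a threshold of 0.01. Totals without mitochondrial transcripts and the ratio to the 20S core were added after seeing the data. Within-group chi-square per degree of freedom was 8.08 to 42.9, so no library repeats another.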

Additional observations from a re-analysis of the deposited data

How the results depend on the processing

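The counts of called members depended on the scaling. With 1 member higher and 2 lower under TMM, the counts were 32 and 0 with library totals alone and with RPKM plus 0.1 or 1, and 21 and 0 with totals without mitochondrial transcripts. They were 2 (Psmb8 and Psmd10) and 1 (Psme4) without a filter, and 0 and 0 at an adjusted p under 0.01. When 1 library was left out, they were 0 to 2 in each direction. DESeq2 size factors, DESeq2, limma-voom and the 30-count filter gave 1 and 2, the same genes, as did the replicate block. Deviations of same-numbered libraries correlated at 0.40, 0.02 and 0.08, and those of differently numbered libraries at -0.27 to 0.17. With 3 libraries per group, these values cannot decide whether the replicate numbers pair the libraries. With the replicate block, a paired sign-flip test (exact) of the 3 catalytic pairs gave p = 0.5, 1 and 0.5, where 0.25 is the smallest possible. The pair ratios kept their sign in all alternatives run, and with a library left out they were 0.25 to 0.92 (Psmb8 to Psmb5), 0.0027 to 0.55 (Psmb9 to Psmb6) and 0.09 to 0.62 (Psmb10 to Psmb7). Among the genes recomputed under every setting, the log2 fold changes that changed sign with library totals alone, with totals without mitochondrial transcripts, and with RPKM plus 0.1 and plus 1 were those of Psmb7 (0.28, 0.16, 0.27, 0.26), Psme1 (0.12, 0.012, 0.11, 0.10), Psme3 (0.28, 0.17, 0.28, 0.26), Psmf1 (0.14, 0.028, 0.13, 0.10) and Psmb2 (0.12, 0.013, 0.12, 0.12). Psmd3 (0.067, 0.066, 0.062) did so with library totals and both RPKM settings, but not without mitochondrial transcripts. Of the other members, Psmd1, Psmd2, Psmd4, Psmd7, Psmd9, Psmd11 and Psmd12 also turned positive with library totals alone. Small values also changed sign with 1 library left out: Psmb6 ranged from -0.0070 (without WT 3) to 0.042, Psma1 from -0.027 (without WT 1) to 0.052, and Psmc2 from -0.033 (without dEx51 6; -0.012 without WT 1) to 0.082. Tap2 ranged from -0.11 (without WT 2; -0.062 without dEx51 5) to 0.29. For these the cause was not tested. Of 642 alternative values in all, 482 kept their direction and side of the threshold or stayed within the spread. Psmb9 had the fewest counts of the tested members, 283 in 6 libraries, and the largest SE, 0.38; depth and spread between libraries were not separated.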
